A study of Homo sapiens with 6 samples.

Results

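HT29 is a human colon adenocarcinoma cell line, and NS398 is a drug that selectively blocks cyclooxygenase-2, an inducible enzyme that makes prostaglandins. The transcripts described here encode the machines that shape, hold together and untangle chromosomes, and those that repair broken or crosslinked DNA: condensin, cohesin, topoisomerase II, homologous recombination and the Fanconi pathway. Of 52 listed genes, 48 had at least 1 probe set that names the gene alone in the platform annotation, out of 19775 such genes in the series, and together they had 110 of the 54675 probe sets. BRCA2, FANCA, FANCD2 and RBBP8 were not analysed here. RNA of 3 NS398-treated samples and 3 control samples was hybridised, each to 1 Affymetrix HG-U133 Plus 2.0 array. Per the methods of the study, the treated cells received the highest of 3 concentrations tried, dissolved in DMSO, in serum-free medium for 3 days. The methods name DMSO as the control of the treatment. The controls on arrays are called untreated, but a supplement lists them under names that start with DMSO, so they likely received the vehicle, and the labels give control only. All samples are of this 1 cell line and are called biological replicates, but no source says whether they were grown apart, so the p-values cover the spread among the arrays and nothing wider.

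Condensin and cohesin are rings built on paired SMC ATPases. Condensin folds chromatin into compact mitotic chromosomes, and cohesin holds sister chromatids together from S phase until anaphase and shapes loops in interphase. Topoisomerase II passes one DNA helix through another and so separates tangled chromatids. Homologous recombination copies an intact sister chromatid to mend a double-strand break, and the Fanconi pathway unhooks crosslinks between the DNA strands and hands the break to recombination. Most of these activities are used in S phase, G2 and mitosis, while several cohesin and break-sensing proteins are present throughout the cycle.

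The deposited signals were linear, with array medians of 76.0 to 80.2 in NS398 and 65.0 to 80.1 in control arrays, and the number of arrays limits precision. Arrays of one group correlated at r = 0.961 to 0.983 and arrays of different groups at 0.931 to 0.952, across 22399 bright probe sets (mean log2 signal over 7, a signal of 128). Of 10 measured markers of colon epithelium 8 were bright, and CDX1 and CDX2 were not. Summed over the 10 markers the signal was 132975 to 141696 in NS398 arrays and 108984 to 123677 in control arrays, but the markers did not move together. KRT20 and CEACAM5 rose by 1.15 and 4.09 on the log2 scale, VIL1 fell by 0.71, and KRT19 and CDH1 had -0.39 and -0.21 without passing. The other probe set of CEACAM5 had 0.99 without passing. Of the 4 probe sets of VIL1, all bright, 2 were called lower, and their highest difference was 0.16. Of leukocyte, fibroblast and endothelial markers, 1 of 5 (LYZ), 1 of 6 (COL1A1) and 1 of 4 (PECAM1) were bright. The fibroblast list summed to 701 to 889 in NS398 arrays and 449 to 594 in control arrays, with COL1A2, COL3A1, DCN and PDGFRB all under 100 in every array, and LUM, its only member that rose, at a difference of 2.24 (adjusted p = 0.00514). The leukocyte and endothelial sums overlapped between groups. PTPRC, the defining leukocyte marker, had 17.2 to 39.6 in NS398 arrays and 2.2 to 43.1 in control arrays. The 3′ to 5′ signal ratio of the ACTB control probe sets, which rises as RNA degrades, was 1.56 ± 0.133 in NS398 and 1.29 ± 0.0301 in control arrays (SD, n = 3 each, exact permutation p = 0.1, two-sided, the smallest that 3 against 3 arrays allow). The same ratio of GAPDH overlapped between the groups, at 1.1 ± 0.0899 in NS398 and 1.03 ± 0.0551 in control arrays (exact permutation p = 0.5). The ACTB ratio and the epithelial and fibroblast sums separated the groups as the differences below do, and their part in those differences was not tested.

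Directions follow the deposited treatment labels, and arrays are named after them. For the genes of these complexes found in the part of the study's list of changed transcripts that was read, the study's direction is the opposite one. Whether the labels or the study's list is turned was not settled, and an exchange of the labels would turn every sign given here. Each gene was read from its brightest probe set, each difference is the log2 signal in NS398 minus that in control, given with its standard error (SE), and a gene rose or fell where limma with a variance trend gave an adjusted p under 0.05 over all 54675 probe sets. In bulk RNA, a lower signal from fewer expressing cells cannot be told apart from less RNA per cell.

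Of the 48 genes 18 fell and 1 rose. With each array centred on its median, 20 were called lower and 0 higher, and over all probe sets the calls then stood at 1943 lower and 864 higher, against 1731 lower and 1782 higher without centring. Across all 19775 genes 4.85% were called lower and 5.23% higher. Of the 45 listed genes with a mean log2 signal above 7, 18 fell, against 8.66% of the 10668 genes with such a signal. Of the 110 probe sets of these genes, 26 were called lower and 2 higher, against 3.17% and 3.26% of all probe sets. By complex, 5 of 8 condensin genes, 2 of 11 cohesin genes, 1 of 2 topoisomerase II genes, 6 of 17 recombination genes and 4 of 10 Fanconi genes fell. The median difference was -1.05 for condensin, -0.30 for cohesin, -1.06 for topoisomerase II, -0.79 for recombination and -0.61 for Fanconi genes, against 0.06 over all genes. The NS398 arrays were all lower than the control arrays for 34 of the 48 genes, a pattern found in 13.5% of all genes, and all higher for 4, against 17.2% of all genes. By limma without the variance trend 0 of the 48 passed after adjustment, and 28 had an unadjusted p under 0.05, 26 of them lower. Of all 19775 genes, 15 passed that fit, and 3476 had an unadjusted p under 0.05, 1480 of them lower.

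**Figure D1:**
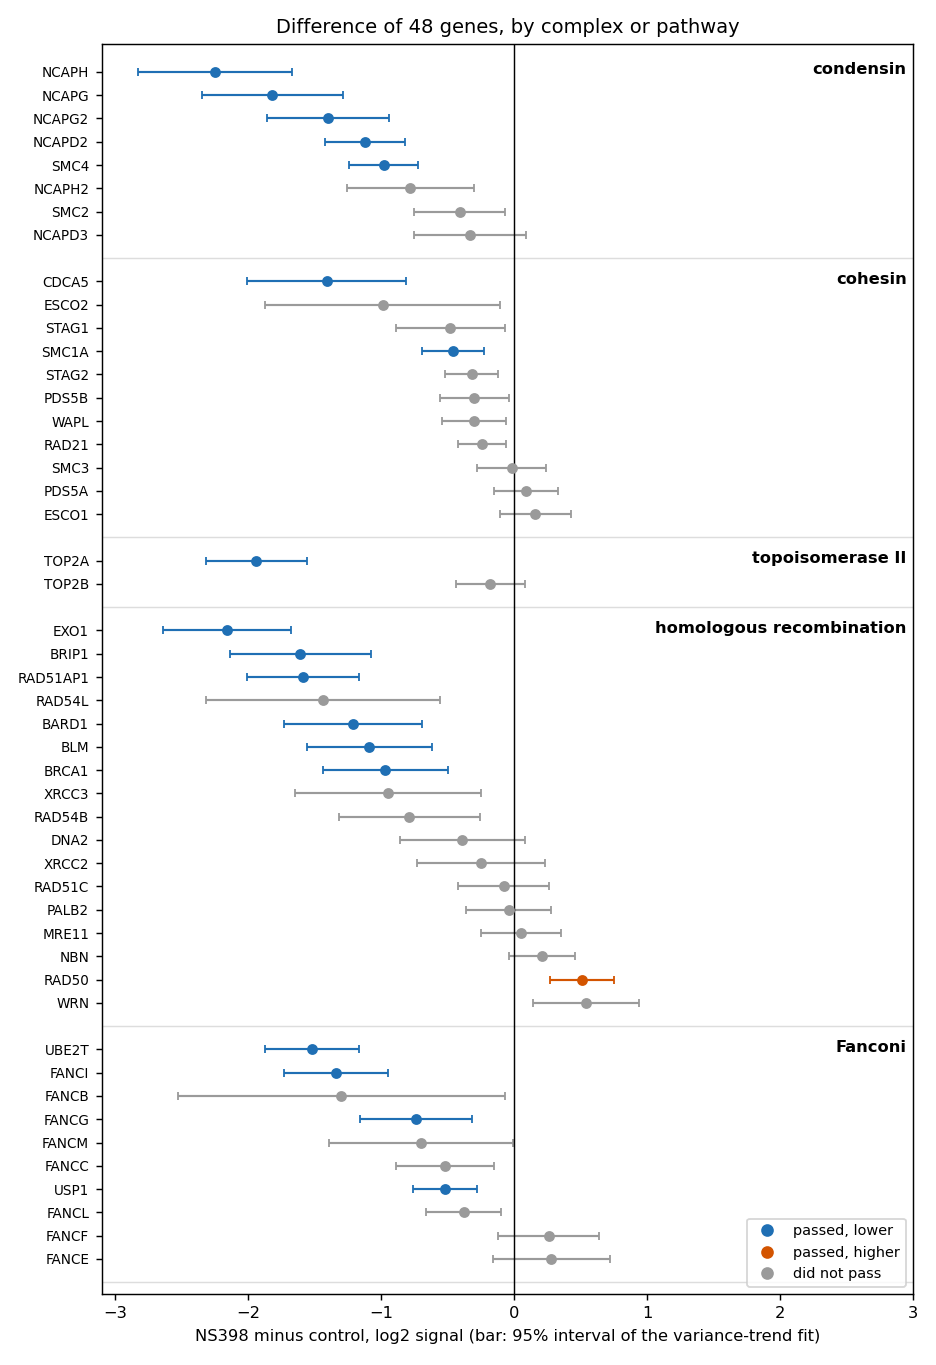
NS398 minus control difference in log2 signal (horizontal axis) of the 48 genes, in blocks by complex or pathway, with the 95% interval of the variance-trend fit. Blue genes passed as lower, the orange gene (RAD50) passed as higher, and grey genes did not pass. The condensin points are all left of 0, the cohesin points lie between -0.48 and 0.16 except CDCA5 and ESCO2, and the recombination points run between -2.16 and 0.54.

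All 8 condensin genes had a negative difference, and NS398 and control arrays did not overlap in 7. The genes of the 3 subunits particular to condensin I, the complex that reaches chromosomes after nuclear envelope breakdown, all fell. NCAPH, the kleisin that closes the condensin I ring, had signals of 127, 228 and 137 in NS398 arrays, against 973, 597 and 732 in control arrays. Its difference of -2.25 ± 0.26, a 4.75-fold lower signal (adjusted p = 5.99e-04), was the strongest decrease among the 48 genes. The HEAT-repeat subunit NCAPG had 179, 314 and 266 in NS398 arrays, against 1110, 704 and 841 in control arrays (-1.82 ± 0.24, adjusted p = 0.00117), and its other probe set differed by -1.98. NCAPD2, the other HEAT-repeat subunit, had 779, 898 and 873 in NS398 arrays, against 2103, 1633 and 1821 in control arrays (-1.12 ± 0.14, adjusted p = 7.73e-04).

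Of the 3 subunits of condensin II, which is nuclear throughout the cycle and starts compaction in prophase, only NCAPG2 passed. It had 316, 372 and 514 in NS398 arrays, against 1269, 891 and 972 in control arrays (-1.40 ± 0.21, adjusted p = 0.00237). The kleisin NCAPH2 had 290, 222 and 368 in NS398 arrays, against 558, 479 and 447 in control arrays, and its difference of -0.78 ± 0.22 missed the threshold (adjusted p = 0.0585), which it passed in 5 of 16 alternatives. Its other bright probe set differed by only -0.06 (adjusted p = 0.948). NCAPD3 had 1146, 1648 and 1420 in NS398 arrays, against 2333, 1446 and 1578 in control arrays, with overlapping groups (-0.33 ± 0.19, adjusted p = 0.412). Both complexes share an ATPase pair, whose members differed in outcome. SMC4 had 1860, 2277 and 2095 in NS398 arrays, against 4406, 4095 and 3755 in control arrays (-0.98 ± 0.12, adjusted p = 6.64e-04). SMC2 had 762, 684 and 564 in NS398 arrays, against 873, 843 and 935 in control arrays, without overlap but short of the threshold (-0.41 ± 0.15, adjusted p = 0.172). Its other bright probe set differed by only -0.01.

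Of the 5 genes of the cohesin ring 1 fell, and their differences lay between -0.48 and -0.02. SMC1A, one of the ATPases, had 4365, 4976 and 4572 in NS398 arrays, against 6285, 5918 and 7010 in control arrays, and fell by 0.46 ± 0.10 on the log2 scale (adjusted p = 0.0219). This call was lost without NS398 replicate 1, 2 or 3 or control replicate 3, with adjusted p = 0.108, 0.0576, 0.0735 and 0.115. The other bright probe set of SMC1A differed by -0.33 (adjusted p = 0.665). For its partner SMC3 the arrays overlapped, with 2217, 2073 and 2216 in NS398 arrays, against 2495, 2041 and 2094 in control arrays (-0.02 ± 0.12, 95% interval ± 0.26), although its other bright probe sets differed by -0.37 and -0.30 without passing. RAD21, the kleisin cut by separase at anaphase, had 9256, 8948 and 9280 in NS398 arrays, against 10509, 11095 and 10970 in control arrays (-0.24 ± 0.08, adjusted p = 0.126). Its second, dimmer probe set differed by -0.88 and passed (adjusted p = 0.00373), so the probe sets of RAD21 disagree in size. STAG2, the ring's main docking subunit in somatic cells, had 5240, 4975 and 5489 in NS398 arrays, against 6714, 6269 and 6560 in control arrays (-0.32 ± 0.09, adjusted p = 0.0729). RAD21 passed after quantile normalisation (adjusted p = 0.0284) and with the mean of its probe sets (-0.56, adjusted p = 0.00763). STAG2 passed after quantile normalisation (adjusted p = 0.0489), with a mean log2 signal above 7 required (adjusted p = 0.0305) and with array weights (adjusted p = 0.0462). Its other bright probe sets differed by only -0.04 and -0.21 without passing, and the mean of its probe sets by -0.19 (adjusted p = 0.254). STAG1 had a difference of -0.48 ± 0.18 (adjusted p = 0.182).

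Of 6 cohesin regulators only CDCA5 fell. CDCA5, or sororin, which protects cohesin on replicated DNA and is degraded after mitosis, had 462, 1028 and 629 in NS398 arrays, against 2417, 1413 and 1634 in control arrays. It fell 2.65-fold (-1.41 ± 0.27, adjusted p = 0.0105), and its arrays did not overlap. ESCO2, the acetyltransferase that locks cohesin in S phase, was dim, with 50, 77.3 and 60.9 in NS398 arrays, against 177, 82 and 127 in control arrays (-0.99 ± 0.40, adjusted p = 0.203). Its relative ESCO1, which acts throughout the cycle, had 1365, 1286 and 1457 in NS398 arrays, against 1138, 1259 and 1270 in control arrays (0.16 ± 0.12, adjusted p = 0.549), with its other bright probe set at -0.31. WAPL, which opens the ring and releases cohesin, had a difference of -0.30 ± 0.11, and its partners PDS5B and PDS5A had -0.30 ± 0.12 and 0.09 ± 0.11, none of which passed.

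**Figure D2:**
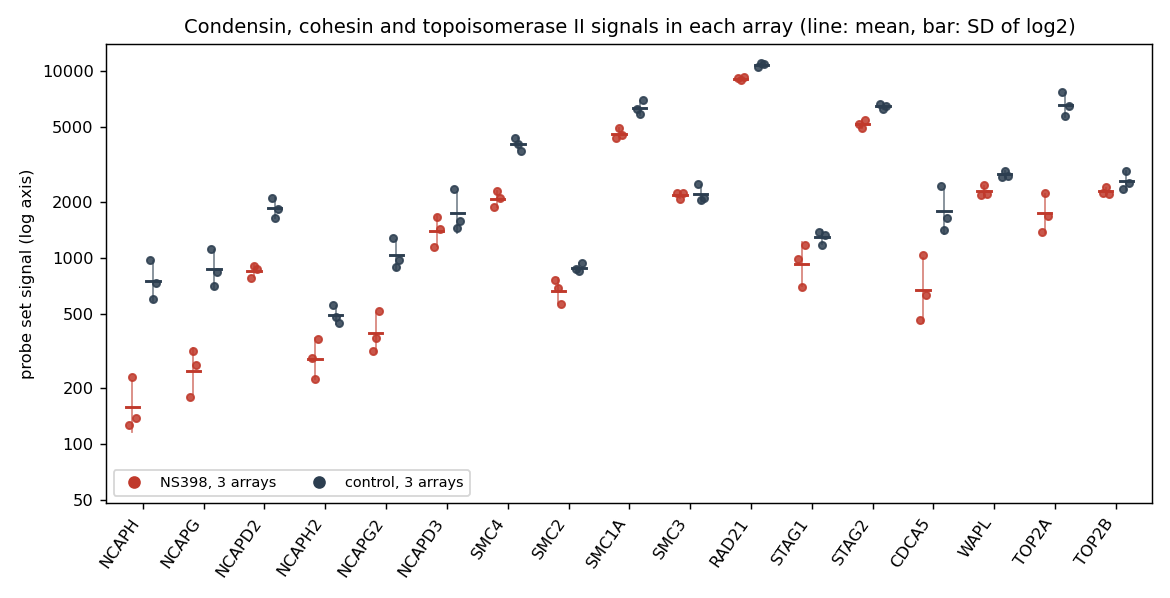
Probe set signal (log axis) of 17 condensin, cohesin and topoisomerase II genes in each of the 3 NS398 and 3 control arrays (points), with the mean and SD of the log2 signal. TOP2A lies between 1373 and 2228 in NS398 arrays and between 5769 and 7724 in control arrays, while the points of TOP2B and SMC3 overlap.

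Of the 2 topoisomerase II genes only TOP2A passed. TOP2A, the isoform of dividing cells and a target of etoposide, had 1373, 2228 and 1683 in NS398 arrays, against 7724, 5769 and 6510 in control arrays. It fell 3.83-fold (-1.94 ± 0.17, adjusted p = 9.55e-05), and its other bright probe set differed by -1.76. TOP2B, the isoform also present in resting cells, had 2227, 2392 and 2206 in NS398 arrays, against 2328, 2930 and 2526 in control arrays. Its arrays overlapped and it did not pass (-0.18 ± 0.12, adjusted p = 0.466).

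Whether counterparts moved unequally was tested for 8 pairs by the log2 ratio of their signals within each array. The TOP2A to TOP2B ratio was lower in NS398 arrays by 1.75 on the log2 scale (-1.75 ± 0.28, SE). The ratio of the kleisins NCAPH and NCAPH2 differed by -1.47 ± 0.48, that of ESCO2 and ESCO1 by -1.16 ± 0.42, that of NCAPD2 and NCAPD3 by -0.79 ± 0.15, and that of PDS5A and PDS5B by 0.40 ± 0.11. In these 5 pairs the groups did not overlap, which gives an exact permutation p of 0.1 (two-sided, adjusted p = 0.16 over 8 pairs), the smallest before adjustment that 3 against 3 arrays allow. The ESCO2 to ESCO1 difference shrank to -0.08 with the mean of each gene's probe sets, and the 4 probe sets of ESCO2, all dim, ran from -0.99 to 1.01. The groups overlapped for NCAPG and NCAPG2 (-0.42 ± 0.22), STAG1 and STAG2 (-0.16 ± 0.19) and the RAD54L and RAD54B translocases (-0.65 ± 0.70), with exact permutation p = 0.2, 0.6 and 0.4. For RAD54L and RAD54B the NS398 arrays themselves spread from -1.79 to 0.62 around the control mean, and the difference was -0.08 without NS398 replicate 1 and -1.28 without NS398 replicate 2. That of NCAPG and NCAPG2 was -0.64 without NS398 replicate 2 and -0.28 without NS398 replicate 3.

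**Figure D3:**
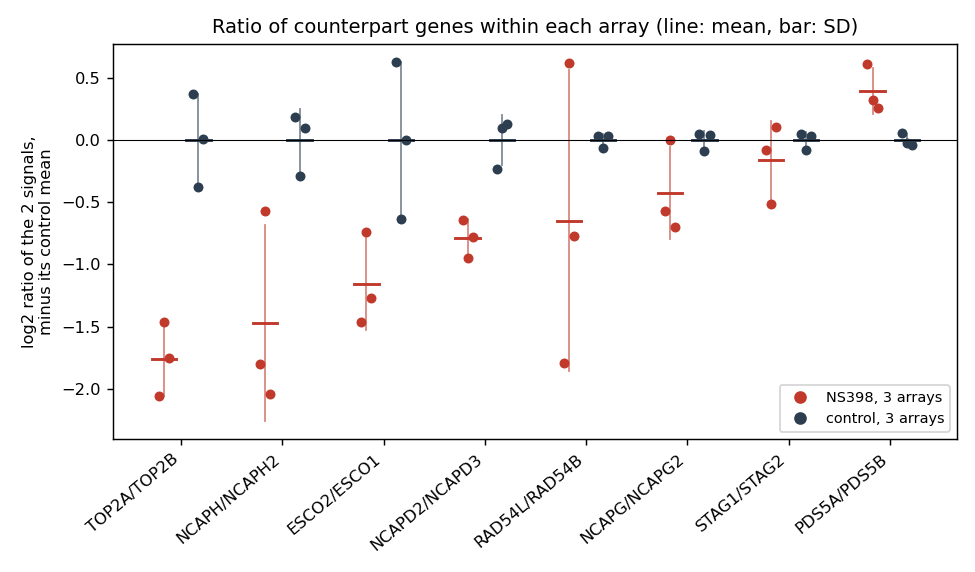
Log2 ratio of 2 counterpart genes within each array, minus the mean of that ratio in the control arrays (vertical axis), for 8 pairs, with the mean and SD of 3 NS398 and 3 control arrays. The TOP2A to TOP2B ratio is between -2.06 and -1.46 in NS398 arrays and between -0.38 and 0.37 in control arrays.

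In homologous recombination the 6 genes that fell were BRCA1, BARD1 and BRIP1, which with PALB2 form a list of 4, and RAD51AP1, EXO1 and BLM. EXO1, the exonuclease that resects broken ends, had 123, 165 and 143 in NS398 arrays, against 785, 617 and 536 in control arrays, a 4.48-fold lower signal (-2.16 ± 0.22, adjusted p = 2.34e-04). The helicase BLM, which dissolves recombination intermediates, had 286, 474 and 441 in NS398 arrays, against 1007, 770 and 743 in control arrays (-1.09 ± 0.22, adjusted p = 0.0115). RAD51AP1, which stimulates strand invasion, had 384, 615 and 522 in NS398 arrays, against 1592, 1267 and 1658 in control arrays (-1.59 ± 0.19, adjusted p = 6.63e-04). In all 3 genes the highest NS398 array stayed below the lowest control array.

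BRCA1, named after its value was seen, is the ubiquitin ligase that promotes end resection. It had 311, 573 and 474 in NS398 arrays, against 880, 774 and 928 in control arrays (-0.97 ± 0.22, adjusted p = 0.0214). The call was lost without NS398 replicate 1 or 3 or control replicate 3 (adjusted p = 0.0625, 0.0518 and 0.105) and with the mean of its probe sets (adjusted p = 0.0974). The other probe set of BRCA1, also bright, differed by -0.50 (adjusted p = 0.371). BARD1, its obligate partner, had 192, 347 and 293 in NS398 arrays, against 733, 544 and 599 in control arrays (-1.21 ± 0.23, adjusted p = 0.0106), a call lost with the mean of its probe sets (adjusted p = 0.0619). The BRCA1-bound helicase BRIP1, also known as FANCJ, had 175, 329 and 256 in NS398 arrays, against 910, 665 and 702 in control arrays (-1.61 ± 0.24, adjusted p = 0.00227), and its second probe set differed by -2.15. PALB2, the bridge from BRCA1 to BRCA2, did not pass, and its arrays overlapped. It had 1072, 1213 and 1072 in NS398 arrays, against 1324, 997 and 1154 in control arrays (-0.04 ± 0.14, 95% interval ± 0.32). Of further recombination genes, RAD51C (-0.08 ± 0.15), XRCC2 (-0.25 ± 0.22) and XRCC3 (-0.95 ± 0.32) did not pass. The translocases RAD54L (-1.44 ± 0.40, adjusted p = 0.0597) and RAD54B (-0.79 ± 0.24, adjusted p = 0.0826) missed the threshold without overlap of their arrays, and the nuclease and helicase DNA2 had -0.39 ± 0.21.

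None of the 3 genes of the MRN complex, which senses broken ends, had a negative difference. RAD50, its ATPase and itself an SMC-like protein, was the only one of the 48 genes that rose, and is named after its value was seen. It had 2319, 2330 and 2245 in NS398 arrays, against 1530, 1721 and 1601 in control arrays (0.51 ± 0.11, 1.42-fold, adjusted p = 0.0190). A second of its 3 probe sets also passed (0.77), while the other differed by 0.05. The call of RAD50 was kept in 8 of 16 alternatives, and was lost with median centring (0.39, adjusted p = 0.189), with the mean of its probe sets (adjusted p = 0.0579) and without NS398 replicate 1, 2 or 3 or control replicate 3 (adjusted p = 0.0808, 0.0992, 0.0518 and 0.0807). NBN, the subunit that recruits the kinase ATM, had 1768, 1808 and 1962 in NS398 arrays, against 1627, 1587 and 1582 in control arrays, without overlap (0.21 ± 0.11, adjusted p = 0.374). The nuclease MRE11 had a difference of 0.05 ± 0.14 with overlapping arrays, and its other bright probe set had -0.84. MRE11 kept its sign in 14 of 16 alternatives, and with median centring NBN differed by 0.08. WRN, the Werner syndrome helicase of the same family as BLM, had 485, 519 and 419 in NS398 arrays, against 375, 304 and 301 in control arrays, the opposite side from BLM, and did not pass (0.54 ± 0.18, adjusted p = 0.123).

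**Figure D4:**
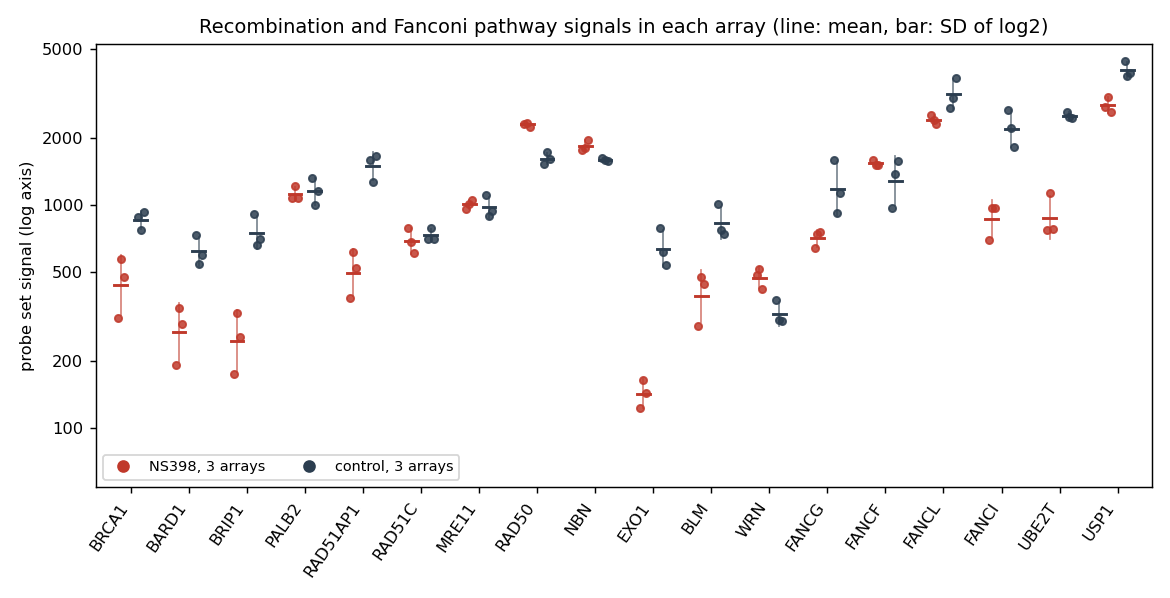
Probe set signal (log axis) of 18 recombination and Fanconi genes in each of the 3 NS398 and 3 control arrays (points), with the mean and SD of the log2 signal. EXO1 lies between 123 and 165 in NS398 arrays and between 536 and 785 in control arrays, while RAD50 lies between 2245 and 2330 in NS398 arrays and between 1530 and 1721 in control arrays.

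In the Fanconi pathway the largest decreases that passed were of UBE2T and FANCI, which act in its central ubiquitination step. UBE2T, the conjugating enzyme of that step, had 769, 1136 and 777 in NS398 arrays, against 2617, 2489 and 2460 in control arrays (-1.52 ± 0.16, 2.87-fold lower, adjusted p = 2.98e-04). Its substrate FANCI had 694, 970 and 972 in NS398 arrays, against 2664, 2219 and 1812 in control arrays (-1.34 ± 0.18, adjusted p = 0.00117), and all 3 of its probe sets passed, with differences between -1.60 and -1.34. USP1, the protease that removes the ubiquitin, had 2754, 3065 and 2605 in NS398 arrays, against 4412, 3790 and 3900 in control arrays (-0.52 ± 0.11, adjusted p = 0.0170), a call lost without NS398 replicate 1 or 3 or control replicate 3 (adjusted p = 0.0737, 0.0690 and 0.0619) and with the mean of its probe sets (adjusted p = 0.0536). NS398 and control arrays did not overlap in any of these 3 genes. The other probe set of USP1, also bright, differed by -0.38 (adjusted p = 0.223).

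Of the 7 measured genes of the core complex, the ubiquitin ligase assembly, only FANCG passed. It had 643, 738 and 757 in NS398 arrays, against 1598, 925 and 1127 in control arrays (-0.74 ± 0.19, adjusted p = 0.0450). That call was lost without any 1 array except control replicate 2 (adjusted p = 0.164, 0.121 and 0.0912 without NS398 replicate 1, 2 and 3, and 0.0775 and 0.122 without control replicate 1 and 3), after quantile normalisation (adjusted p = 0.0510) and where probe sets were averaged for all genes (adjusted p = 0.0519). FANCL, the catalytic RING subunit, had 2534, 2411 and 2309 in NS398 arrays, against 2729, 3036 and 3714 in control arrays, without overlap (-0.38 ± 0.13, adjusted p = 0.125), and passed without control replicate 1 (adjusted p = 0.0368). FANCF, an adaptor of the complex, had 1592, 1518 and 1513 in NS398 arrays, against 969, 1380 and 1582 in control arrays, with overlap (0.26 ± 0.17, adjusted p = 0.469). Its other bright probe set had -0.14. FANCC had -0.52 ± 0.17, FANCE had 0.28 ± 0.20, and the dim FANCM and FANCB had -0.70 ± 0.31 and -1.30 ± 0.56, none of which passed.

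Arrays of a group kept much the same order over these genes. Among the 18 genes that fell, NS398 replicate 1 had the lowest signal of its group in 17 and NS398 replicate 2 the highest in 15. Control replicate 1 had the highest signal of its group in 15 of the 18. Among all 960 genes called lower, the same arrays held these places in 626, 460 and 461 genes. The 18 genes were read from the same 6 arrays and are not independent of each other.

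Neighbours of these genes in the same pathways were read from other lists, 51 measured genes in all, of which 14 (27.5%) fell and 3 (5.88%) rose, against 4.85% and 5.23% of all genes. Of 8 other cohesin regulators 3 fell. ESPL1, the separase that cuts RAD21, had 260, 405 and 340 in NS398 arrays, against 1403, 1004 and 982 in control arrays (-1.76 ± 0.21, adjusted p = 5.99e-04), its inhibitor PTTG1, or securin, differed by -1.43 ± 0.18, and the cohesin loader NIPBL by -0.50 ± 0.12. Of the 5 probe sets of NIPBL, all bright, 1 was called lower, and their differences ran from -0.50 to -0.08. Of 21 other recombination and checkpoint genes 9 fell and 1 rose. The histone variant H2AX, which marks breaks when phosphorylated, had 1950, 2738 and 2918 in NS398 arrays, against 9192, 7326 and 7508 in control arrays (-1.67 ± 0.15, adjusted p = 1.38e-04). RMI2, a partner of BLM, differed by -1.62 ± 0.24, RPA3, of the complex that coats single-stranded DNA, by -0.92 ± 0.14, and the checkpoint kinase gene CHEK1 by -0.96 ± 0.16, whereas the nuclease MUS81 rose by 0.52 ± 0.12. Of the 4 probe sets of CHEK1, all bright, 2 were called lower, and their highest difference was 0.24.

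Other branches had fewer calls. Of 8 further Fanconi pathway genes UHRF1, which binds crosslinks and hemimethylated DNA, fell (-2.01 ± 0.26, adjusted p = 9.52e-04) and the nuclease ERCC4 rose (0.74 ± 0.20, adjusted p = 0.0465). Of 6 measured genes of non-homologous end joining, the repair route that needs no sister chromatid, XRCC6 fell (-0.40 ± 0.09, adjusted p = 0.0252), with a list median of -0.36. None of 5 genes of the SMC5/6 complex passed by limma with the variance trend. SMC6 came nearest (0.47 ± 0.13, adjusted p = 0.0527), and the list median was 0.17. Without the trend 0 of the 5 passed, and 1 had an unadjusted p under 0.05, against 3476 of all 19775 genes. Of 3 type I topoisomerases the mitochondrial TOP1MT rose (0.83 ± 0.13, adjusted p = 0.00278). How these lists differ from condensin or recombination was not tested.

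Promoter letters of the genes that moved together were compared with those of the other members. RefSeq windows (GRCh38.p14) of 250 bases before to 50 after a start were at hand for 39 of the 48 genes. The searches, on both strands, were for the E2F site letters TTTCCCGC, TTTCGCGC, TTTGCCGC and TTTGGCGC, for the cell cycle homology region letters TTTGAA and TTCGAA, and for the CCAAT box. The homology region, an element through which the MuvB complexes repress mitotic genes in resting cells, was matched in 9 of 22 windows (40.9%) of genes that fell and in 6 of 30 (20.0%) of the other members, against 16.4% of all 35116 windows. E2F letters were matched in 3 of 22 (13.6%) and 5 of 30 (16.7%), against 3.31% of all windows, and CCAAT in 9 of 22 (40.9%) and 15 of 30, against 34.6%. A match is a description of the letters and not of a bound site, and the difference between these shares was not tested.

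Bases 160 to 1 before the start are shown for 4 genes, with matched letters in capitals, 5′ to 3′ on the gene's strand. TOP2A and TOP2B are shown as a pair with unequal differences, and both hold inverted CCAAT boxes. Both windows also hold homology region letters, where TTCAAA is TTTGAA read on the other strand. In TOP2A they lie at -151 from the start (TTCAAA, shown) and at -194 (TTTGAA, not shown). In TOP2B they lie at -227 (TTCAAA), also outside the bases shown. TOP2B has 2 windows, of which the one without any match is left out. NCAPG and CDCA5 are shown because TTTGAA lies 35 bases and TTCGAA 26 bases before their starts, and CDCA5 also holds an E2F match.
TOP2A, chr17:40417897-40418056, minus strand: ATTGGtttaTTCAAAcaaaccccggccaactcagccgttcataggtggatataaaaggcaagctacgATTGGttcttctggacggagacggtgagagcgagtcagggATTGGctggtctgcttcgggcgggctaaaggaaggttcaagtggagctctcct
TOP2B, chr3:25664908-25665067, minus strand: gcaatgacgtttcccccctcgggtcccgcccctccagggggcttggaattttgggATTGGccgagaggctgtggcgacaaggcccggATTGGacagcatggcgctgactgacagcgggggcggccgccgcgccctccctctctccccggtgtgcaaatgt
NCAPG, chr4:17810819-17810978, plus strand: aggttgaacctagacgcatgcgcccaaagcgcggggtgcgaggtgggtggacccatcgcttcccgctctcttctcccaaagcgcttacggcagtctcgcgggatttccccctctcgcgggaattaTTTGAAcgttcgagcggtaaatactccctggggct
CDCA5, chr11:65084041-65084200, minus strand: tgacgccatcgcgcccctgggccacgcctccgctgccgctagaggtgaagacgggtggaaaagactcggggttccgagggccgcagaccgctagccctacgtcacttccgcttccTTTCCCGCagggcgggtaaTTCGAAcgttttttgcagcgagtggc
Among these 4 genes TOP2A, NCAPG and CDCA5 fell and TOP2B did not pass.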

How the data were processed

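Total RNA of 6 HT29 samples (3 NS398, 3 control) was hybridised to HG-U133 Plus 2.0 arrays. The deposited values are linear intensity values, 1 signal per probe set and array, which the authors had scaled before deposit to a mean of 500 without the top and bottom 2%. The methods describe gcRMA with quantile normalisation, and these values do not have equal quantiles. The affy package is named in the submitters' processing notes, its version is not given there. Scans were not used.

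Signals were put on the log2 scale without offset. Probe sets naming 1 gene (41097 of 54675) took its symbol, updated by Entrez number through the RefSeq table (GRCh38.p14), and the brightest probe set stood for the gene. Groups were compared with lmFit and eBayes of limma 3.58.1 (R 4.3.3), allowing a variance trend and robust estimation (prior degrees of freedom 7.07 at the median, 1.36 without), Benjamini-Hochberg adjusted over 54675 probe sets at 0.05. The statistic that the study names (SAM) was not run. Ratios of counterpart genes were compared by exact permutation. The variance-trend fit was tested on simulated normal noise with planted differences and a spread set by signal level alone. Such noise follows a variance trend by design, so that test cannot check the choice of the trend. Full statistics are given in each complex for up to 5 genes that passed without overlap, by size, and for the 2 brightest that did not pass. Of other pathway genes at most 4 called ones per list are named, by p. NCAPH2, SMC3, STAG1, ESCO1, ESCO2, WRN, BRCA1, RAD50, MUS81 and SMC6 lie outside this rule and were described after their values were seen. The members, lists, tests and the variance trend were chosen with earlier results of these data known. Alternatives were plain eBayes, the trend without robust estimation, quantile normalisation, median centring, filters at a mean log2 signal of 4 or 7, an offset of 32, array weights, averaging a gene's probe sets, a replicate block, and dropping 1 array at a time.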

Additional observations from a re-analysis of the deposited data

How the results depend on the processing

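Of the 18 genes that fell, 18 kept a negative difference in all 16 alternatives and 13 were called lower in 15 of them, the exception being limma without the variance trend. That test called 0 of the listed genes lower and 0 higher (0 in condensin, cohesin, topoisomerase II, recombination and Fanconi genes), and 5 probe sets lower and 19 higher, where the variance trend called 1731 lower and 1782 higher. Median centring left 20 listed genes lower and 0 higher, and called 1943 probe sets lower and 864 higher, the median log2 signal being 0.12 higher in NS398 arrays. Quantile normalisation called 4 cohesin genes lower, where 2 were called without it. Averaging the probe sets per gene called 2 Fanconi genes lower and 0 listed genes higher, turned the STAG1 to STAG2 ratio to 0.04 and left that of ESCO2 to ESCO1 at -0.08. Same-numbered arrays share only a number (r of their deviations -0.137, -0.0633 and -0.104). With the replicate block 15 listed genes were lower and 0 higher, 1 in cohesin and 2 in the Fanconi group (SMC1A, FANCG and USP1 lost their calls, adjusted p = 0.0596, 0.0788 and 0.0501), and 1237 probe sets were lower and 1225 higher. Without 1 array each, 14 to 18 listed genes were lower and 0 to 1 higher, 1 to 2 in cohesin and 2 to 4 in the Fanconi group. In these fits 827 to 1964 probe sets were lower and 894 to 2020 higher (fewest lower without control replicate 3, fewest higher without NS398 replicate 1), the STAG1 to STAG2 ratio ran from -0.30 to 0.01, that of RAD54L to RAD54B from -1.28 to -0.08 and PALB2 from -0.15 to 0.06. The cause of these changes was not tested. Signals near background limit ESCO2, FANCB and FANCM.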
